A study of Mus musculus with 5 samples.

Results

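The genes described here are 9 transcription factor genes of the neural plate border and the neural crest: the homeobox genes Msx1 and Msx2, the AP-2 family gene Tfap2b, the zinc finger genes Snai1 and Snai2, the forkhead gene Foxd3, the ETS family gene Ets1, and the zinc finger homeobox genes Zeb1 and Zeb2. They were chosen by name from the table of 21801 genes, and each had 1 row. RNA was taken from mouse neuroepithelial cells (NECs), which line the early neural tube, divide and give rise to radial glia, and the labels, which give the cell type as neural progenitors, place all 5 libraries in 1 group as replicates 1 to 5. The series title places the cells in the developing mouse neocortex and its design text calls them purified, while the sources used here give neither genotype nor embryonic age nor the method of purification. Values are FPKM, in which the fragments of a gene are divided by the length of its transcript in kilobases and by the mapped reads in units of 1000000, and a level is the mean ± SD over the 5 libraries (n = 5) unless stated otherwise. Of the 9 genes, limma's moderated test placed 7 above 1 FPKM and 2 below it (threshold of 0.05 on the p adjusted by Benjamini and Hochberg), against 52.3% above and 41.4% below among the 19706 genes tested.

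The neural plate border is the strip between neural plate and surface ectoderm, where BMP, Wnt and FGF signals turn on genes such as Msx1, Msx2, Pax3, Pax7, Zic1 and the AP-2 genes. Cells of the border become neural crest when they switch on specifier genes, among them Snai1, Snai2, Foxd3, Ets1, Sox9 and Sox10, and then leave the neural epithelium by an epithelial to mesenchymal transition, in which Snail and Zeb proteins repress epithelial genes such as Cdh1, the E-cadherin gene. Most of these genes have other sites of use as well: Snai1, Snai2, Msx1 and Ets1 in mesenchyme, Ets1 in endothelium, Tfap2b in ectoderm and kidney, and Zeb1 and Zeb2 in neural progenitors and neurons.

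The libraries differed in the markers of cell types they held. FPKM summed to 747034 to 847625 per library, and the steps between low values implied 20.6 to 28.4 M reads (1 M = 1000000) behind the unit. Of 8 neural progenitor markers 7 lay above 1 FPKM and none below, led by Prom1, an apical membrane protein, at 88.1 ± 10.96 FPKM and Pax6, a forebrain progenitor factor, at 64.6 ± 7.64 FPKM; Hes5 was called neither way at 0.99 ± 0.33 FPKM. Of 12 mesenchyme markers 8 lay above and 3 below, and of 9 surface ectoderm markers 6 lay above and 2 below. Among all genes tested, 52.3% lay above and 41.4% below. The mesenchyme markers summed to 39.5, 67.3, 142, 116 and 118 FPKM in replicates 1 to 5, so that replicates 1 and 2 stood below the other three libraries. The surface ectoderm markers summed to 99.6, 151, 139, 103 and 103 FPKM, with replicates 2 and 3 highest. The labels do not say whether the libraries came from separate animals, so the p-values measure the spread between these libraries, which may be technical. In bulk RNA, fewer cells of a type and less RNA per cell cannot be told apart.

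The upstream sequences of Snai1, Msx1 and Tfap2b are shown first. Between the libraries these 3 genes differed more than most genes with a mean of 1 to 50 FPKM. A further reason is that Snail and Zeb proteins are known to bind the letters CACCTG. Each line gives the 250 bases before the RefSeq transcript start, 5′ to 3′ on the strand of the gene, from RefSeq on GRCm38.p6. Capitals mark CACCTG or its reverse complement CAGGTG, and CCAAT, the letters bound by the factor NF-Y, or its reverse complement ATTGG.
Snai1, chr2:167537945-167538194, plus strand: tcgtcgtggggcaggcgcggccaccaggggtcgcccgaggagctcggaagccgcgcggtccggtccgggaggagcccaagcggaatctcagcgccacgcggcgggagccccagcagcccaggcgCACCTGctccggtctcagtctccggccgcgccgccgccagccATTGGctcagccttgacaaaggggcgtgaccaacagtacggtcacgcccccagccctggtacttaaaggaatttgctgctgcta
Msx1, chr5:37824586-37824835, minus strand: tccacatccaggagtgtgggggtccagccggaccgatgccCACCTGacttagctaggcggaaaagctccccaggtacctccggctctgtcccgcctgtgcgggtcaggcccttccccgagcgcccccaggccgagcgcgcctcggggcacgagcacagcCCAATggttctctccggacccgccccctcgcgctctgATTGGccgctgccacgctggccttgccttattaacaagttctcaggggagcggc
Tfap2b, chr1:19211804-19212053, plus strand: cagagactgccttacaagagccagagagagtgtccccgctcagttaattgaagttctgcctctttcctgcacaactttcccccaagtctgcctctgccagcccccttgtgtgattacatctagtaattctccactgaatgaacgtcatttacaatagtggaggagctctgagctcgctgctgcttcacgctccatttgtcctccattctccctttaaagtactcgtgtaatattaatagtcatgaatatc
None of the 3 windows overlaps an exon of GENCODE M21, and the window of Tfap2b lies inside the annotated span of its gene. CACCTG or CAGGTG was found 1 time upstream of Snai1, 126 to 121 bases before the start, 1 time upstream of Msx1, 210 to 205 bases before it, and not upstream of Tfap2b. Of 32851 windows of the same length, 17.2% held it. CCAAT or ATTGG, held by 33.8% of the windows, was found 1 time upstream of Snai1 and 2 times upstream of Msx1. TATAAA or TTTATA, held by 12.4% of the windows, was in none of these 3. No motif overlapped another. The Snai1 window had 27 CG dinucleotides and the Msx1 window 20, against a median of 6 over all windows, and the Tfap2b window had 5. RefSeq windows were at hand for 6 of the 9 genes, and those of Zeb2, Foxd3 and Msx2 were searched in the same way. No CACCTG or CAGGTG was found in them.

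Of the border homeobox genes, Msx1 was present and Msx2 was low. Msx1 (ENSMUSG00000048450, chromosome 5, 37820485 to 37824583 on mm10), a repressor that acts early at the border under BMP control, stood at 2.25, 2.25, 4.61, 4.11 and 4.60 FPKM in replicates 1 to 5. Replicates 1 and 2 were low and the other three were high, with no value between 2.25 and 4.11. The mean of 3.56 ± 1.22 FPKM gave a difference from that level of 1.14 in log2(FPKM + 1) (SE 0.16, limma adjusted p = 0.000185). Msx2 (ENSMUSG00000021469, chromosome 13, 53466884 to 53473074), its close relative, stood at 0.417, 0.394, 0.731, 0.616 and 0.206 FPKM. No library reached 1 FPKM, and replicate 5, which was among the high libraries for Msx1, was the lowest for Msx2. The mean of 0.47 ± 0.20 FPKM lay below the level by a log2 difference of -0.45 (SE 0.08, limma adjusted p = 0.0007). Msx3, the third mouse member of the family, was listed at 0 in all 5 libraries.

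Tfap2b (ENSMUSG00000025927, chromosome 1, 19208914 to 19238576), an AP-2 factor of the border, the crest and the facial ectoderm, was the second highest of the 9 genes. It stood at 8.24, 12.6, 18.7, 12.4 and 14.8 FPKM in replicates 1 to 5. Replicate 1 was lowest and replicate 3 highest, and replicates 2 and 4 were close to each other. The mean of 13.3 ± 3.82 FPKM differed from 1 FPKM by 2.80 in log2 units (SE 0.14, limma adjusted p = 3.5e-07). The AP-2 family was uneven. Tfap2a, the member best known for crest induction, was called neither way at 0.84 ± 0.28 FPKM, with values of 0.492, 0.592, 1.04, 0.979 and 1.09, and Tfap2c lay above the level at 1.57 ± 0.26 FPKM. Tfap2d lay below it at 0.15 ± 0.14 FPKM, and Tfap2e was listed at 0 in replicate 1 and at no more than 0.0459 FPKM elsewhere.

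The Snail genes were both above 1 FPKM in every library. Snai1 (ENSMUSG00000042821, chromosome 2, 167538195 to 167542814), the repressor that starts the epithelial to mesenchymal transition in many tissues, stood at 2.12, 2.66, 6.96, 5.31 and 5.91 FPKM in replicates 1 to 5. Its single annotated transcript of 1621 bases and the implied totals put these values at 69.0, 99.0, 204, 214 and 194 reads. Replicates 1 and 2 were both below the other three libraries. The mean of 4.59 ± 2.10 FPKM gave a log2 difference from the level of 1.39 (SE 0.21, limma adjusted p = 0.00037). Snai2 (ENSMUSG00000022676, chromosome 16, 14705852 to 14709385), also called Slug and a specifier of migrating crest in chick, stood at 1.67, 2.65, 4.58, 3.91 and 3.52 FPKM, or about 69.6, 126, 172, 202 and 148 reads. Again replicate 1 was lowest, replicate 2 next and replicate 3 highest. The mean was 3.27 ± 1.13 FPKM, with a log2 difference of 1.05 (SE 0.16, limma adjusted p = 0.00034). Snai3, the third family member, lay below the level at 0.33 ± 0.18 FPKM.

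Foxd3 (ENSMUSG00000067261, chromosome 4, 99656299 to 99658622), which marks premigratory crest and keeps it multipotent, was listed at 0 FPKM in replicates 1 to 4 and at 0.0199 FPKM in replicate 5. One read of its transcript of 2324 bases was worth 0.0204 FPKM in replicate 5, so that value stands for about 1 read. Values of 0 also appear in all 5 libraries for Actb, Eef1a1 and Hspa8, which are transcribed in nearly all cell types, and a 0 may therefore be a failed estimate. Foxd3 was the gene furthest below 1 FPKM among the 9 (log2 difference -0.99, limma adjusted p = 3.3e-10). A value of 0 is the floor of log2(FPKM + 1), so the size of this difference and its small p follow from that floor. Its relatives Foxd1 and Foxd2 stood at 1.07 ± 0.41 and 0.43 ± 0.20 FPKM, the first called neither way and the second below.

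Ets1 (ENSMUSG00000032035, chromosome 9, 32636221 to 32757820), an activator of cranial crest delamination in chick, had the widest range of the 9 genes apart from Foxd3. It stood at 4.11, 7.81, 16.9, 13.5 and 14.1 FPKM in replicates 1 to 5. Replicate 1 was lowest, replicate 2 next, and the other three libraries were all higher than both. The mean of 11.3 ± 5.19 FPKM gave a log2 difference of 2.49 (SE 0.25, limma adjusted p = 3.1e-05). Fli1, a related ETS gene active in endothelium and blood, followed the same order of low and high libraries with 3.22, 4.85, 11.9, 8.41 and 9.11 FPKM. The annotation places the antisense gene Gm27240 in the Ets1 span and Zeb2os in that of Zeb2. Gm10125 and the pseudogene Gm16147 lie on the opposite strand in the span of Zeb1. Whether their exons overlap those of the genes was not tested. Where exons do overlap, reads without strand cannot be told apart.

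The Zeb genes were the steadiest. Zeb1 (ENSMUSG00000024238, chromosome 18, 5591860 to 5775467), which represses Cdh1 and holds neural progenitors undifferentiated, stood at 23.9, 24.1, 24.4, 28.2 and 23.1 FPKM in replicates 1 to 5. Replicate 4 was above the other libraries, which were close together. Its mean of 24.7 ± 2.00 FPKM was the highest of the 9 genes, with a log2 difference of 3.68 (SE 0.05, limma adjusted p = 1.9e-10), and was above that of 80.8% of the tested genes. Zeb2 (ENSMUSG00000026872, chromosome 2, 44983632 to 45117395), a cofactor of Smad proteins needed for crest formation in mouse, stood at 6.81, 6.06, 6.10, 5.87 and 5.89 FPKM. Replicate 1 was the highest library for Zeb2, in contrast to Snai1, Snai2, Ets1 and Tfap2b, for which it was the lowest. The mean was 6.15 ± 0.38 FPKM, with a log2 difference of 1.84 (SE 0.06, limma adjusted p = 3.4e-08).

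**Figure D1:**
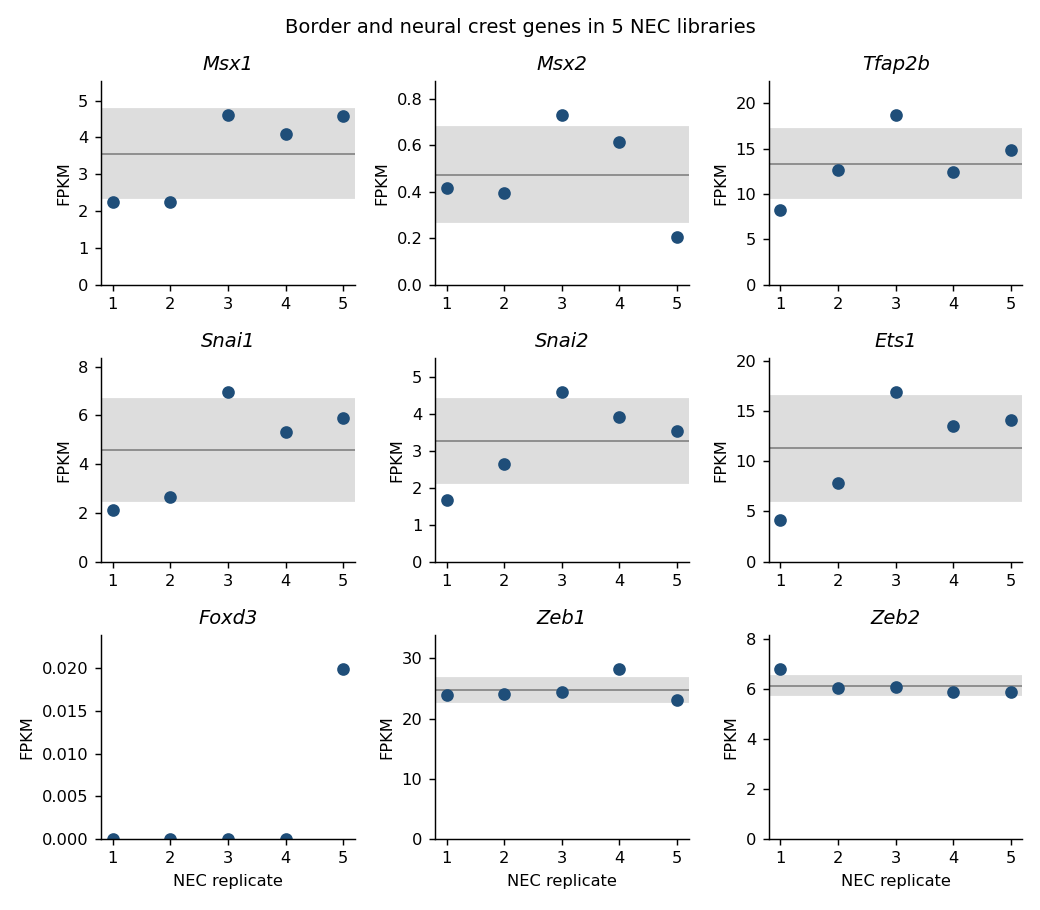
FPKM (vertical axes, each from 0) of the 9 genes in NEC replicates 1 to 5 (horizontal axes), 1 point per library; the line and grey band are the mean ± SD of the 5 libraries and are left out for Foxd3, listed at 0 in replicates 1 to 4. Msx1, Snai1, Snai2 and Ets1 have replicates 1 and 2 below the other libraries, while Zeb1 stays between 23.1 and 28.2 FPKM and Zeb2 between 5.87 and 6.81 FPKM.

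In order of mean level the genes ran Zeb1, Tfap2b, Ets1, Zeb2, Snai1, Msx1, Snai2, Msx2 and Foxd3. Zeb1 stood apart from Tfap2b: its lowest library, at 23.1 FPKM, was above the highest of Tfap2b, at 18.7 FPKM. From Tfap2b down to Snai2 each gene's range overlapped that of the next. Ets1 exceeded Zeb2 in 4 of 5 libraries and Zeb2 exceeded Snai1 in 3 of 5, so the order of these means does not hold in each library. Msx1 and Snai2 were closest, with a log2 difference of 0.10 ± 0.20 (SD, n = 5). Snai2 and Msx2 were separated again, the lowest Snai2 library being at 1.67 FPKM and the highest Msx2 library at 0.731 FPKM.

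Within each library the genes were set against their homologs. Msx1 minus Msx2 was 1.60 ± 0.42 on the log2(FPKM + 1) scale, Zeb1 minus Zeb2 was 1.85 ± 0.15, Tfap2b minus Tfap2a was 2.93 ± 0.26, and Ets1 minus Ets2 was 2.24 ± 0.67 (SD, n = 5 each). Snai1 minus Snai2 was the smallest difference at 0.34 ± 0.24, and in replicate 2 it was 0.005, at 2.66 FPKM for Snai1 and 2.65 for Snai2. The first gene was the higher in 5 of 5 libraries for each of the 5 pairs. For each pair p was 0.0625 by an exact permutation of signs (two-sided) and 0.0625 after adjustment over the pairs; 5 libraries allow no smaller value, so no pair could pass 0.05. The ratio of Zeb1 to Zeb2 in FPKM was narrow, from 3.52 to 4.80. That of Ets1 to Ets2 was wide, from 3.68 in replicate 1 to 13.4 in replicate 3: Ets2, a ubiquitous relative, stood between 1.12 and 1.61 FPKM. Msx1 to Msx2 was 5.39 to 6.67 in replicates 1 to 4 and 22.3 in replicate 5, where Msx2 was lowest.

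**Figure D2:**
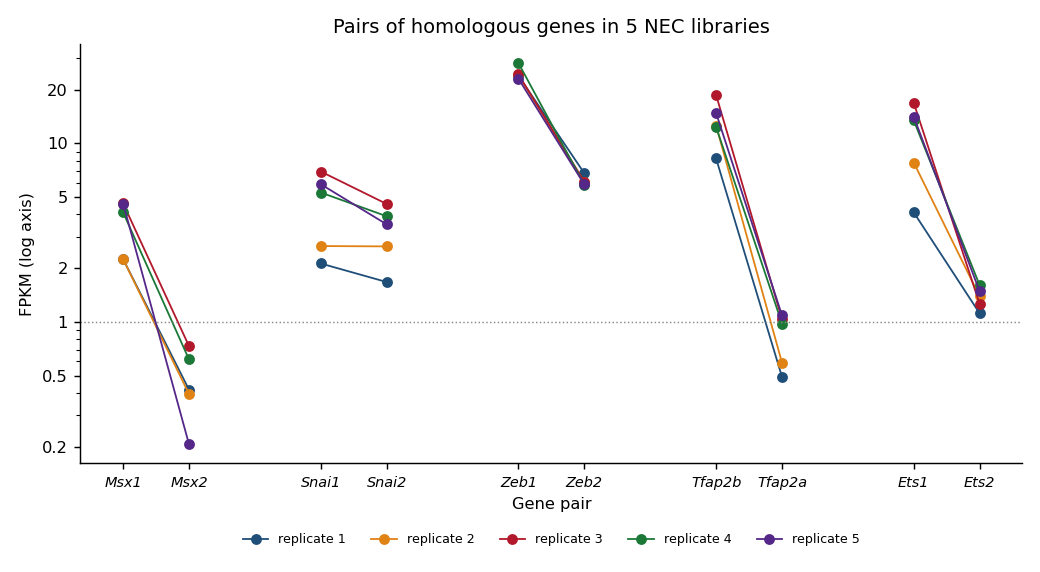
FPKM on a log axis of the 5 gene pairs, the first gene of each pair on the left and its homolog on the right, with 1 line per library and a dotted line at 1 FPKM. All lines slope down to the right; the Snai1 and Snai2 lines are nearly level, and the Ets1 points spread from 4.11 to 16.9 FPKM while the Ets2 points lie between 1.12 and 1.61 FPKM.

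The 7 genes that averaged 1 FPKM or more formed 2 sets, those that differed between libraries and the steady Zeb pair. The highest library exceeded the lowest 4.11-fold for Ets1, 3.28-fold for Snai1, 2.74-fold for Snai2, 2.27-fold for Tfap2b and 2.05-fold for Msx1, against a median of 1.44-fold over 8530 genes with a mean of 1 to 50 FPKM. These ratios were larger than those of 98.1%, 96.6%, 94.5%, 90.2% and 86.5% of these genes. The ratio was 1.22-fold for Zeb1 and 1.16-fold for Zeb2, larger than those of 15.4% and 6.17% of the genes. Without replicate 1 the ratio was 2.16-fold for Ets1, 1.73-fold for Snai2 and 1.51-fold for Tfap2b, so that library accounted for much of their range, while Snai1 was still at 2.62-fold and Msx1 at 2.05-fold. These are descriptions over 5 libraries of 1 group, with no test.

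**Figure D3:**
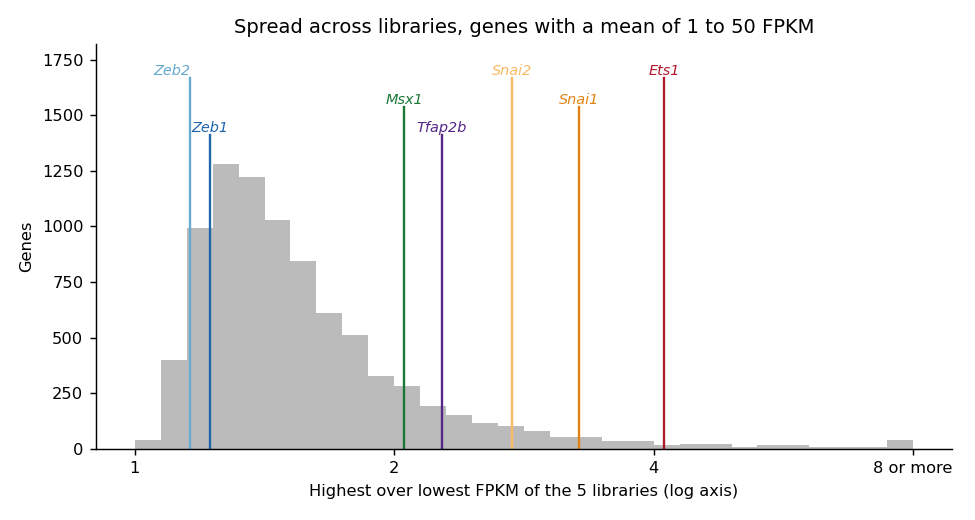
Number of genes (vertical axis) by the ratio of the highest to the lowest FPKM of the 5 libraries (horizontal log axis), for 8530 genes with a mean of 1 to 50 FPKM; coloured lines mark the 7 genes described. Zeb1 and Zeb2 lie left of the median of 1.44, and Msx1, Tfap2b, Snai2, Snai1 and Ets1 lie in the right tail.

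Most mesenchyme markers averaging 1 FPKM or more moved with Ets1, Snai1, Snai2 and Msx1, and less closely with Tfap2b. On the log2(FPKM + 1) scale, Ets1 deviated from its own mean by -1.13, -0.35, 0.68, 0.37 and 0.43 in replicates 1 to 5, and the median of the 9 mesenchyme markers averaging 1 FPKM or more deviated by -0.83, -0.37, 0.47, 0.23 and 0.35. Snai1 deviated by -0.75, -0.52, 0.60, 0.27 and 0.40, Snai2 by -0.63, -0.18, 0.43, 0.25 and 0.13, Msx1 by -0.45, -0.45, 0.34, 0.21 and 0.34, and Tfap2b by -0.59, -0.04, 0.50, -0.06 and 0.18. The deviations of the Zeb genes stayed between -0.09 and 0.19. Replicates 1 and 2 were both below replicates 3, 4 and 5 for 4 of the 7 genes (Msx1, Snai1, Snai2 and Ets1) and for 8 of the 9 mesenchyme markers, against 22.4% of all 10983 genes averaging 1 FPKM or more. The mesenchyme list was led by Lum, a matrix proteoglycan gene, with 12.1, 28.2, 66.1, 55.5 and 50.9 FPKM, and by the receptor gene Pdgfra at 11.2 ± 4.57 FPKM, and Tbx18 was its lowest at 0.11 ± 0.09 FPKM. The same split was found in 9 of 14 genes for corepressors and Snail turnover, 7 of 11 other crest specifiers and 3 of 6 endothelium markers that averaged 1 FPKM or more, so it is not particular to the 9 genes or to mesenchyme. This split of the libraries was chosen after the values were seen. The mesenchyme list shares Twist1 with the crest list below and Col1a1 and Col3a1 with the list of mesenchymal genes.

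Set against the summed mesenchyme markers of the same library, Ets1 was nearly constant. It came to 10.4%, 11.6%, 11.9%, 11.6% and 11.9% of that sum in replicates 1 to 5, a 1.15-fold range. Snai1 came to 5.38%, 3.95%, 4.89%, 4.57% and 4.99%, a 1.36-fold range, and Snai2 to between 2.97% and 4.24%. The share was less even for Tfap2b, at 20.9% in replicate 1 and 10.7% in replicate 4, a 1.96-fold range, and for Msx1, at 5.69% in replicate 1 and 3.24% in replicate 3, a 1.76-fold range. Zeb1 and Zeb2 did not keep such a share: Zeb1 came to 60.6% in replicate 1 and 17.1% in replicate 3, and Zeb2 to 17.2% and 4.28%. Lum was the largest part of the sum, with 12.1 of 39.5 FPKM in replicate 1 and 55.5 of 116 FPKM in replicate 4. How many other genes keep as even a share was not tested, nor was which cells carried the transcripts.

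Other marker lists differed in how they stood beside these genes. The 10 endothelium markers summed to 19.5, 21.8, 34.3, 32.6 and 31.8 FPKM. Of them, 3 lay above 1 FPKM and 4 below, against 52.3% and 41.4% of all genes tested. Egfl7 led them at 11.4 ± 1.34 FPKM, with Fli1 next at 7.51 ± 3.49, and Pecam1, an adhesion molecule gene, also lay above at 3.32 ± 0.46 FPKM. Emcn (2.62 ± 1.90), Tek (1.26 ± 0.81) and Kdr (1.14 ± 0.45) were called neither way, and the cadherin gene Cdh5 and the receptor gene Tie1 lay below at 0.30 ± 0.23 and 0.09 ± 0.06 FPKM. The part of endothelium in the Ets1 values was not tested. The surface ectoderm markers, led by Krt18 at 62.3 ± 11.8 FPKM and Krt8 at 24.1 ± 5.16 FPKM, deviated by -0.26, 0.35, 0.24, -0.14 and -0.15, and so were highest in replicate 2, where Msx1, Snai1, Snai2 and Ets1 were below their means. Grhl1 was the lowest of them, listed at 0 in replicate 4 and at no more than 0.147 FPKM elsewhere. Neuron markers, of which 5 of 8 lay above the level and 3 below, ran the other way, at 0.34, 0.22, -0.32, -0.01 and -0.07, as did the neural progenitor markers at 0.20, 0.06, -0.22, -0.09 and -0.02. Tubb3 (61.6 ± 13.1 FPKM) and Gap43 (18.2 ± 5.23) were the highest neuron markers and Rbfox3 (0.16 ± 0.12) the lowest. Gap43 differed from the median of its list: at 11.9, 13.3, 23.4, 20.5 and 22.0 FPKM it was lowest in replicate 1 and highest in replicate 3, as Ets1 was. Of 8 blood and microglia markers 1 lay above, the integrin Itgam at 1.82 ± 0.51 FPKM, and 6 below, with Gata1 next at 0.24 ± 0.08 and Aif1 listed at 0 throughout. Of 9 dorsal midline markers 3 lay above and 4 below, led by Rspo3 (5.71 ± 0.86) and Lmx1a (3.46 ± 0.25), with Gdf7 listed at 0 in every library.

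**Figure D4:**
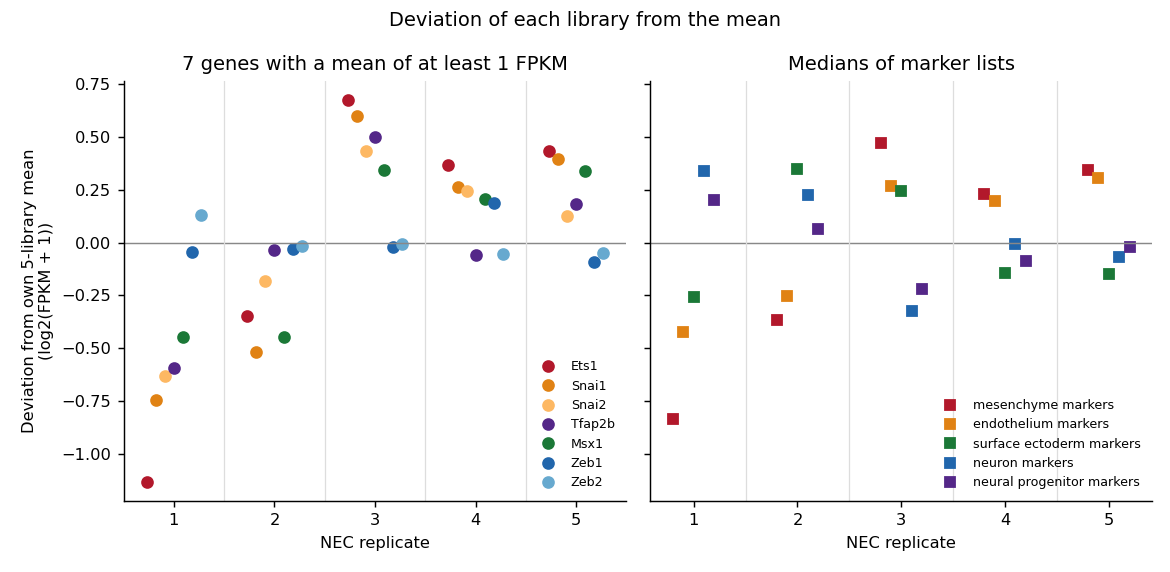
Deviation of each library (horizontal axis, NEC replicates 1 to 5) from the 5-library mean of log2(FPKM + 1) for the 7 genes averaging 1 FPKM or more (left, circles) and for the medians of 5 marker lists (right, squares). Ets1, Snai1, Snai2 and Msx1 and the mesenchyme markers are below 0 in replicates 1 and 2 and above 0 in the others, while Zeb1 and Zeb2 stay between -0.09 and 0.19.

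The genes whose deviations over the 5 libraries were nearest to those of each gene were found among the 10983 genes averaging 1 FPKM or more, by the root mean square difference on the log2 scale. For Snai1 the nearest was Cdh11, a cadherin of migrating crest and mesenchyme, at a distance of 0.033, with 6.16, 7.83, 17.9, 13.4 and 14.8 FPKM in replicates 1 to 5, then Plcg2 (0.091) and Stambpl1 (0.092). For Ets1 they were Alx4 (0.077) and Alx1 (0.096), homeobox genes of craniofacial mesenchyme, and Crabp1 (0.097), a retinoic acid binding protein gene. For Msx1 the nearest was Foxc1 (0.036), a forkhead gene of cranial mesenchyme, at 0.819, 0.866, 2.34, 2.05 and 2.18 FPKM, then Pde4d (0.041) and Top2b (0.052). The log2(FPKM + 1) scale understates differences of low genes, so a near gene can differ in fold range. From lowest to highest library Foxc1 ranged 2.86-fold and Pde4d 2.02-fold, against 2.05-fold for Msx1. Snai2 lay nearest to Cited1 (0.057), Kctd1 (0.059) and Tes (0.064), and Tfap2b to Hist1h2ad (0.072), a histone gene with near-identical copies whose level is uncertain, Igf2r (0.077) and Serpinf1 (0.094). Zeb1 was nearest to Rps27rt (0.016), Fam136a (0.019) and Zswim1 (0.020), and Zeb2 to Sall1 (0.013), Efcab14 (0.019) and Chn1 (0.022). Likeness to the steady genes is not selective: 4775 genes lay within 0.15 of Zeb1 and 4233 of Zeb2, against 12 of Ets1, 15 of Snai1, 81 of Tfap2b, 119 of Snai2 and 146 of Msx1. Rps27rt is a near copy of Rps27, so its level is uncertain too.

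Other genes of the border stood above 1 FPKM about as often as genes in general. Of 15, 8 (53.3%) were called above the level, against 52.3% of all genes tested, 2 below and 5 neither way, with a median of 1.34 FPKM beside 1.79 FPKM over all genes tested. Dlx5, a homeobox gene of the border and of facial ectoderm and mesenchyme, was highest at 25.1 ± 9.18 FPKM, and Pax3, which with Zic1 starts the crest programme in frog, was next at 9.44 ± 2.08 FPKM. Pax3 stood at 6.10, 8.71, 10.8, 10.6 and 10.95 FPKM in replicates 1 to 5, with replicates 1 and 2 below the rest, as for Snai1. Of the 10 border genes averaging 1 FPKM or more, 2 (Pax3 and Pax7) had this split, near the 22.4% of all genes, and Dlx5 was highest in replicate 2 at 40.4 FPKM. Gata2 was lowest at 0.11 ± 0.12 FPKM.

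Crest specifiers outside the 9 genes lay above 1 FPKM, with 1 exception. Of 12, 11 (91.7%) were called above that level, against 52.3% of all genes tested, and 1 below, with a median of 16.2 FPKM. Not all 11 were abundant: Sox8 (1.65 ± 0.61) and Rxrg (1.77 ± 0.43) stood below the median of 1.79 FPKM over all genes tested. Id3 (331 ± 46.6 FPKM) and Id2 (177 ± 16.7), inhibitors of bHLH factors and BMP targets in many cells, were highest. The exception was Sox10, which is kept on in migrating crest and its glial and pigment progeny. It stood at 0.122, 0.0760, 0.367, 0.252 and 0.293 FPKM, below the level with a log2 difference of -0.72 (SE 0.05, limma adjusted p = 4.6e-06). Sox9, its relative in premigratory crest, cartilage and neural progenitors, was at 19.2 ± 4.12 FPKM. Twist1, a bHLH factor of cranial mesenchyme and crest, stood at 0.989, 1.54, 5.24, 3.71 and 5.47 FPKM, with replicates 1 and 2 lowest. Sox8, Rxrg, Sox9 and Twist1 were named after their values were seen.

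Genes of migrating crest and its derivatives were mixed. Of 15, 10 were called above the level, 4 below and 1 neither way, with a median of 1.89 FPKM. Among all genes tested, 52.3% lay above and 41.4% below. Crabp1 was highest at 831 ± 320 FPKM, with 364, 673, 1176, 909 and 1035 FPKM in replicates 1 to 5, followed by the cadherin gene Cdh6 at 42.1 ± 3.85 FPKM. Of 11 genes for border signals and their antagonists 3 lay above and 7 below, with a median of 0.50 FPKM. The BMP ligands Bmp7 (10.1 ± 1.02) and Bmp4 (4.64 ± 0.43) were highest, and Wnt1, a ligand of the dorsal midline, was lowest at 0.07 ± 0.06 FPKM.

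The epithelial genes that Snail and Zeb proteins are known to repress were present together with their repressors. All 13 lay above 1 FPKM, against 52.3% of all genes tested. Their median was 8.91 FPKM, beside 1.79 FPKM over all genes tested. The claudin gene Cldn6 was highest at 116 ± 33.3 FPKM, Cdh1 was next at 25.2 ± 5.67 FPKM, and the splicing regulator Esrp2 was lowest at 1.47 ± 0.36 FPKM. Cdh1 stood at 19.8, 32.6, 29.9, 22.4 and 21.4 FPKM, lowest in replicate 1, where Snai1 and Snai2 were also lowest, and highest in replicate 2. The list's median deviation of -0.30, 0.43, 0.23, -0.14 and -0.18 was close to that of the surface ectoderm markers, with which it shares Epcam, and the part of surface ectoderm in it was not tested.

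Of 12 mesenchymal genes of the transition 10 were called above the level, 1 below and 1 neither way, with a median of 5.78 FPKM. Among all genes tested, 52.3% lay above and 41.4% below. The matrix protein gene Sparc (161 ± 23.1 FPKM) and the intermediate filament gene Vim (54.2 ± 8.38) were highest and S100a4 lowest, listed at 0 in replicate 3 and at up to 1.32 FPKM elsewhere. Cdh2, the cadherin that replaces Cdh1 in the neural plate, stood at 48.2, 45.0, 39.9, 35.2 and 41.7 FPKM. It was highest in replicate 1, where Snai1 and Ets1 were lowest, and it is also on the list of neural progenitor markers. The corepressors that Snail and Zeb proteins recruit and the enzymes of Snail turnover were all present. Of 14, 14 lay above the level, against 52.3% of all genes tested. Their median was 33.6 FPKM, beside 1.79 FPKM over all genes tested. Hdac1, a deacetylase, was highest at 304 ± 24.8 FPKM and the methylase Ezh2 next at 63.2 ± 4.37 FPKM. The ubiquitin ligase subunit Fbxl14 was lowest at 2.22 ± 0.53 FPKM. Over the 19 genes listed of the AP-2, Msx, Snail, Foxd, Ets and Zeb families, 9 lay above, 7 below and 2 neither way. Among all genes tested 52.3% lay above, and Msx3 was not tested because of its zeros. The 19 include the 9 genes described, of which 7 lay above. Among their listed relatives only Tfap2c and Ets2 lay above.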

How the data were processed

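RNA of mouse NECs was measured in 1 group of 5 libraries. Full-length cDNA was made, per the labels' protocols, with a poly-dT primer and template switching, amplified and sequenced as single-end reads; no molecular identifiers and no strand protocol are described. The authors deposited 1 table of FPKM. Per the submitters' processing notes the tools included TopHat2 2.0.11, Cuffdiff 2.2.1, CASAVA 1.8 and cutadapt and the build was mm10, without stated roles; annotation release and filters are not stated in the sources used here. Columns were matched to samples by replicate number.

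FPKM are not counts, so limma 3.58.1 in R 4.3.3 was fitted on log2(FPKM + 1), which understates differences of low genes. For the 19706 genes above 0 in at least 1 library an intercept was tested two-sided against 1 FPKM with a variance trend, with Benjamini-Hochberg adjustment over all of them; the script was tested on simulated data. Gene pairs were compared within libraries by an exact permutation test (two-sided) over the 32 patterns of signs, adjusted over 5 pairs. Implied read totals came from the steps between values under 0.15 FPKM of single-transcript genes longer than 800 bases, after taking 200 bases off each length. Of 21801 gene IDs, 21537 matched GENCODE M21, the source of coordinates; promoters came from RefSeq (GRCm38.p6).

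The members and the 15 other lists were chosen with earlier results of these data known. Named genes were the members, the pairs, the 2 highest and the lowest gene of each list, the 3 nearest genes by library deviations, Cdh1 and Cdh2; any other was named after its values were seen. Of the genes this rule takes, 1 is not reported here. Alternatives were pseudocounts of 0.5 and 0.1, 2 rescalings, other filters, levels of 0.5 and 2 FPKM, other variance settings and leaving out each replicate.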

Additional observations from a re-analysis of the deposited data

Results flagged for a closer look

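In 9 of 77 genes and gene pairs examined, 1 library lay further from the other four than Dixon's test allows at its 95% critical value of 0.71; chance flags about 1 in 20 such groups. Among the genes described, Zeb1 was high in replicate 4 at 28.2 FPKM, against no more than 24.4 FPKM in the others. Zeb2 was high in replicate 1 at 6.81 FPKM, against no more than 6.10 FPKM. Foxd3 was above 0 only in replicate 5, where its 0.0199 FPKM stands for about 1 read. With 0 in every other library, any value above 0 would have been flagged. Rps27rt (1562 FPKM), Fam136a (378 FPKM) and Zswim1 (29.2 FPKM) were high in replicate 4 and Efcab14 (20.5 FPKM) in replicate 1; these were named because their deviations were nearest to those of Zeb1 and Zeb2, so they are not separate evidence. Gata2 was high in replicate 3 at 0.314 FPKM and Wnt1 in replicate 1 at 0.161 FPKM.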

How the results depend on the processing

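Of 133 recomputed levels of the 9 genes, 132 kept their direction and side of the threshold; the exception was Msx2, whose log2 difference from a level of 0.5 FPKM was -0.038 (limma adjusted p = 0.649). The count of genes below was 1 with a mean of at least 0.1 FPKM required and 1 at a level of 0.5 FPKM, and ran from 1 to 2 when a replicate was left out, since Foxd3 was not tested without replicate 5. All 45 recomputed pair differences kept their direction; with 4 libraries the smallest exact p is 0.125. Rescaling to equal sums raised the median log2 level by 0.30.

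Counts of the other lists that moved by over 1.5 times were these. At a level of 0.5 FPKM, 13 border genes lay above, 2 migrating crest genes, 4 border signals, 0 mesenchymal genes and 4 family members lay below, and 6 endothelium markers lay above. At a level of 2 FPKM, 4 border genes lay above and 9 below, 1 epithelial gene, 2 mesenchymal genes, 11 family members and 1 neural progenitor marker lay below, and 0 blood and microglia markers lay above. With a mean of at least 0.1 FPKM required, 2 migrating crest genes, 4 family members, 1 surface ectoderm marker and 2 blood and microglia markers lay below. After rescaling to equal sums, 2 migrating crest genes and 0 mesenchymal genes lay below, and with no filter 0 mesenchymal genes lay below. Leaving out each replicate gave 2 to 4 border genes and 0 to 1 mesenchymal genes below; the border count was 4 without replicate 2, and the mesenchymal count 0 without replicates 1, 3 or 4. A higher or lower level and a filter change these counts by construction; for the rest the cause was not tested. No paired analysis was possible because the samples form 1 group. At the implied totals a value under 0.1 FPKM stands for a handful of reads, so that differences among such values could not be detected.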
